A study of Rattus norvegicus with 4 samples.

Results

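Genes for the targets, efflux and reduction of doxorubicin were followed in the glomerular transcriptome of rats given the drug. They were listed by name: the topoisomerases Top2b and Top1, the efflux pumps Abcb1a, Abcb1b, Abcc1 and Abcg2, the carbonyl reductases Cbr1 and Cbr3, the reductase Por and the repair kinase Prkdc. Of these 10 genes, 7 have a row under that name among the 13261 rat genes used; Abcb1a, Abcb1b and Cbr1 were not analysed here. The samples form 1 group of 4, numbered replicates 1 to 4: glomeruli sieved from kidneys of male Wistar rats after an intravenous injection of Adriamycin (ADR), a trade name of doxorubicin. The labels give no dose, no age and no single harvest day for these samples, and each sample is taken here as 1 animal. Without an uninjured group, a level below carries no direction of change. The labels do not state that the samples came from separate animals, so p-values measure only the spread between these libraries, which may be technical.

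Doxorubicin is an anthracycline that slips into DNA and traps type II topoisomerases on the breaks they make. Top2b encodes the form present in cells that have left the cell cycle, such as podocytes, whereas Top2a encodes the form of dividing cells. The drug is pumped out by ATP-binding cassette (ABC) transporters, is reduced to the alcohol doxorubicinol by carbonyl reductases, and is reduced by single-electron donors such as Por to a semiquinone that passes its electron on to oxygen. Prkdc encodes the catalytic subunit of DNA-dependent protein kinase, which starts the end joining of broken DNA, and a variant of it governs susceptibility to this nephropathy in mice.

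The promoters of both topoisomerase II genes and of the measured pumps Abcc1 and Abcg2 are shown because the results below turn on how these pairs of genes differed between animals. Each is the run of 250 bases before the RefSeq start, 5′ to 3′ on the strand of the gene, in the RefSeq build GRCr8. That build is not the one named for the expression table. Entries were found for 9 of the 10 genes, all but Prkdc. In Top2b (chr15:11542465-11542714, minus strand) and Top2a (chr10:84473094-84473343, minus strand), capitals mark the CCAAT box, searched as CCAAT on both strands, so it appears here as ATTGG.

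Top2b: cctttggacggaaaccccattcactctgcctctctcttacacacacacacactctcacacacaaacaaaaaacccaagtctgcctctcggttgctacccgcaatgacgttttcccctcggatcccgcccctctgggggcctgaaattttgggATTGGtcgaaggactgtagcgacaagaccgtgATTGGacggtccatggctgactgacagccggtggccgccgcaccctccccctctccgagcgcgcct

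Top2a: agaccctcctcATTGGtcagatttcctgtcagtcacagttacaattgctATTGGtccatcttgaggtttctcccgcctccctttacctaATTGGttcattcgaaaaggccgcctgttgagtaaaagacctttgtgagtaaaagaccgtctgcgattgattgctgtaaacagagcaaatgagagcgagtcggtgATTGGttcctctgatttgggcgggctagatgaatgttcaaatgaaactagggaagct

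In Abcc1 (chr10:1162368-1162617, minus strand) and Abcg2 (chr4:89075224-89075473, plus strand), capitals mark the GC box, searched as GGGCGG on both strands. In Abcg2 some matches lie on the other strand and read CCGCCC. In Abcc1, neighbouring matches share a base.

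Abcc1: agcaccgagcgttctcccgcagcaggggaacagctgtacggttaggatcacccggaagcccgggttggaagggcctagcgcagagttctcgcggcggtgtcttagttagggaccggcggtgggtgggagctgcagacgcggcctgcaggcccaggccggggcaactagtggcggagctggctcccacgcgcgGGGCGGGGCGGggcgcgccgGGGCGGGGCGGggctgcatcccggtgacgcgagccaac

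Abcg2: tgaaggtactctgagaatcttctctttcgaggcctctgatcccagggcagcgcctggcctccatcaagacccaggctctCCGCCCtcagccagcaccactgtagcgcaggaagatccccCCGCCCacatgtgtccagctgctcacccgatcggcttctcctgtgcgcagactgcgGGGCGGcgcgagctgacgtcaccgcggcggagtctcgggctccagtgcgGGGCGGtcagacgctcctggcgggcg

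The Top2a window holds 4 CCAAT boxes and that of Top2b 2, while those of Top1, Abcc1, Abcg2, Cbr3 and Por hold 0. Over 33469 rat promoters of this length, 34.02% hold at least 1 CCAAT box and 0.565% hold 4 or more. Abcc1, Abcg2 and Top1 each hold 4 GC boxes, Por holds 2, Top2b holds 1 and Cbr3 holds 0. At least 1 GC box is present in 30.47% of all promoters and 4 or more in 3.666%. The letters TGACNNNGC, the core of the antioxidant response element, were searched on both strands as well and were found 0 times in the measured genes' windows, against 10.08% of all promoters. These matches are letters in a window and not measured binding.

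The libraries held 13566962 to 16207027 reads in the genes used, and the 7 genes had between 93 and 2949 reads per library. Levels are given as CPM, the reads of a gene scaled to a common library total, from the deposited log2 values. They are not corrected for transcript length, so they rank animals within a gene and not genes against each other. The 10 podocyte markers had at least 165 reads in each library and summed to 6067 to 10280 CPM, so markers of the labelled tissue were present. The 8 proximal tubule markers summed to 2662 to 5527 CPM and had at least 852 reads each, so tubular RNA was present beside glomerular RNA.

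Differences between animals beyond counting error were found for 5 of the 7 genes, Top2b, Top1, Abcc1, Abcg2 and Por, against 69.5% of all genes (chi-square index of dispersion on reads, Benjamini-Hochberg adjusted over 13261 genes). Prkdc and Cbr3 did not pass. The calls for Top2b, Abcc1, Abcg2 and Por were each lost when a particular animal was left out, as given with each gene. The median SD of log2 CPM was 0.15 for the 7 genes and 0.18 for all genes, and 2 of the 7, Abcc1 and Abcg2, lay above the latter. Set against the abundance trend fitted by limma, 0 of the 7 and 0% of all genes passed an adjusted p of 0.05. At an unadjusted p under 0.05 the trend test gave 0 of the 7 and 724 of all genes, or 5.46%. The trend was fitted to these same genes, so a share of all genes near the threshold follows largely from the fit. A Pearson statistic at a binned dispersion trend, added later, called 0 of the 7 and 7.53% of all genes, with Abcg2 alone of the 7 under an unadjusted p of 0.05 in that test.

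**Figure D1:**
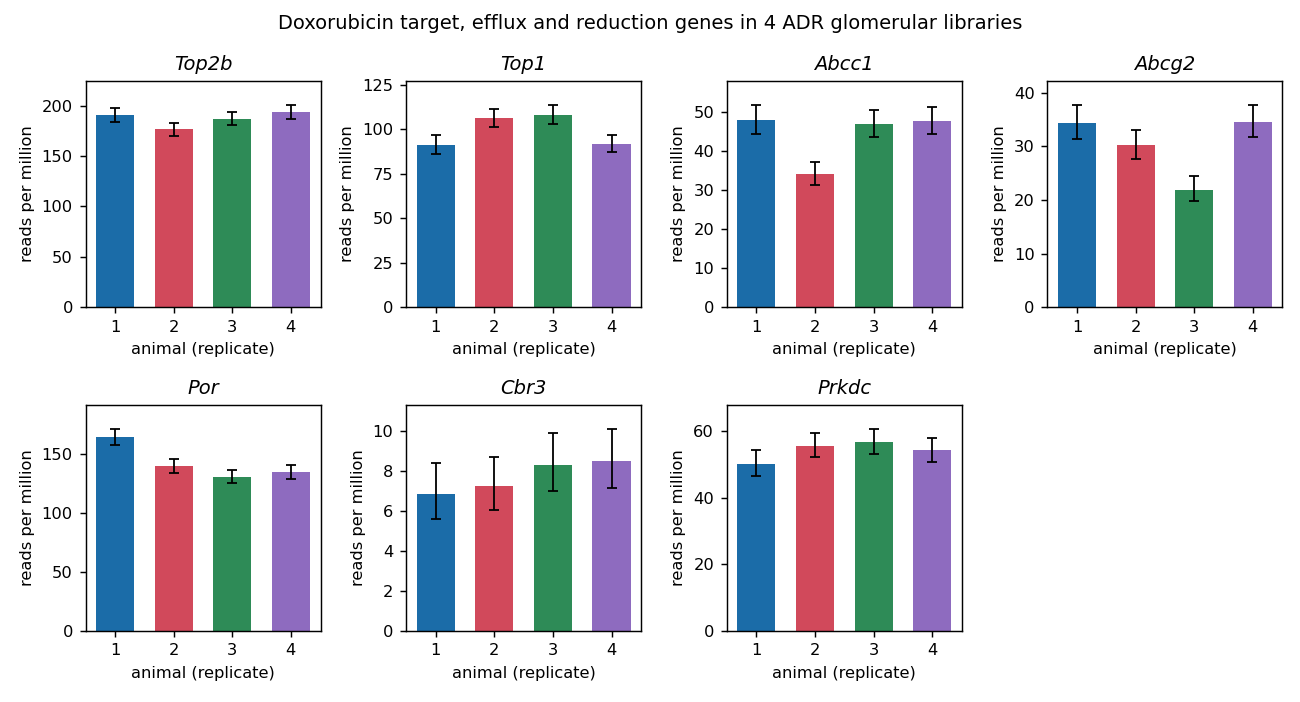
CPM of the 7 measured genes (y axis, from 0) in each of the 4 ADR libraries (x axis, replicates 1 to 4), with 95% Wilson intervals for counting error as error bars. Abcc1 is lowest in replicate 2, Abcg2 is lowest in replicate 3 and Por is highest in replicate 1, while Top2b differs by 1.10 times between its extremes.

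**Figure D2:**
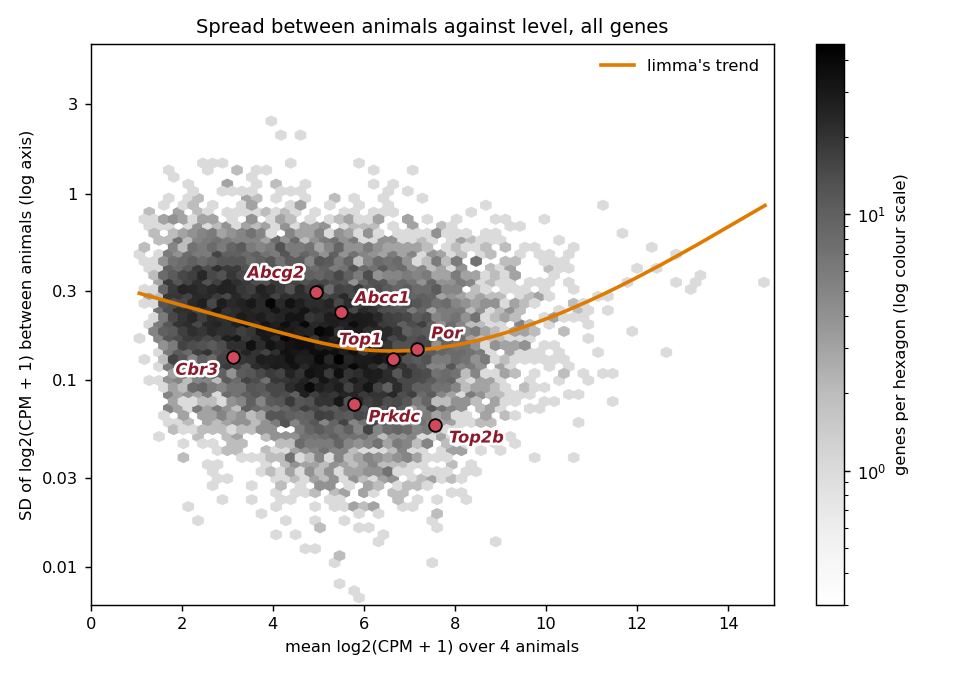
SD of log2(CPM + 1) between the 4 animals (y axis, log scale) against the mean log2(CPM + 1) (x axis) for all 13261 genes as shaded hexagons, with the trend fitted by limma as a line and the 7 genes as red points. Abcg2 and Abcc1 lie above the trend, Top1 and Por close to it, and Cbr3, Prkdc and Top2b below it.

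Top2b, the topoisomerase II of resting cells, was nearly level across the animals. Its 4 libraries held 2589, 2860, 2873 and 2949 reads, or 191, 176, 187 and 193 CPM, in replicates 1 to 4. The mean was 187 ± 7.47 CPM (SD, n = 4), and the highest animal exceeded the lowest by 1.10 times. Replicate 2 was the lowest and the other three lay within a narrow band. The SD of its log2 CPM, 0.06, was larger than that of only 5.17% of all genes. On the log2(CPM + 1) scale the SD was 0.39 times the value expected from the trend at its level. The small differences still passed the counting-error test (chi-square adjusted p = 0.005), but not without replicate 2 (chi-square adjusted p = 0.52), nor with mitochondrial genes taken out of the library totals (chi-square adjusted p = 0.61). Mitochondrial genes took 12.5% of reads in replicate 2 and 7.46% to 9.34% in the others. The deposited row gives Top2b the biotype of a processed transcript, whereas RefSeq lists the gene as protein coding.

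Top1 encodes topoisomerase I, which relaxes DNA by nicking a single strand. It had 1239, 1721, 1661 and 1400 reads, or 91.4, 106, 108 and 91.9 CPM. Replicates 2 and 3 lay together above replicates 1 and 4, with no animal standing alone. The mean was 99.4 ± 9.06 CPM (SD, n = 4), and the spread exceeded counting error (chi-square adjusted p = 1.50e-07), also without any single replicate (largest chi-square adjusted p = 3.47e-05). Relative to the abundance trend the SD of Top1 was 0.91 times the expected value (limma adjusted p = 0.998). The difference in log2 CPM of Top1 minus Top2b, which does not depend on library totals, was -1.06, -0.73, -0.79 and -1.07 in replicates 1 to 4, higher in replicates 2 and 3 here too.

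Top2a, the form of proliferating cells and not among the 10 genes, was detected beside Top2b. It had 478, 413, 486 and 350 reads, or a mean of 28.9 ± 5.62 CPM (SD, n = 4). Top2a supplied 15.6% of the reads of both topoisomerase II genes in replicate 1 (95% Wilson interval 14.3% to 16.9%), 12.6% in replicate 2 (11.5% to 13.8%), 14.5% in replicate 3 (13.3% to 15.7%) and 10.6% in replicate 4 (9.60% to 11.7%). The interval of replicate 4 lay below those of replicates 1 and 3 and overlapped that of replicate 2. Since the transcripts differ in length, these are shares of reads and not of molecules. All 6 proliferation markers (Mki67, Ccnb1, Cdk1, Birc5, Tpx2 and Aurkb) were also lowest in replicate 4, as 13.9% of all genes were, and summed there to 68.9 CPM against 88.5 to 110 CPM in the others. In bulk tissue, fewer cells of a type and less RNA per cell cannot be told apart.

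**Figure D3:**
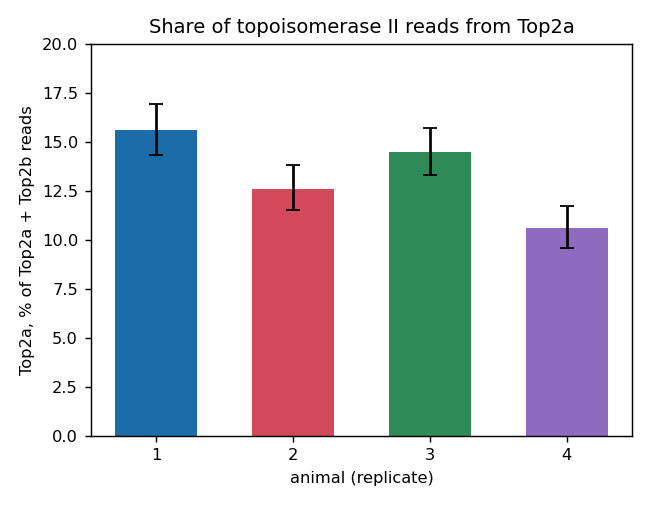
Top2a reads as a percentage of the reads of Top2a and Top2b together (y axis, from 0) in each ADR library (x axis, replicates 1 to 4), with 95% Wilson intervals as error bars. Replicate 1 is highest at 15.6% and replicate 4 lowest at 10.6%.

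Among the pumps, Abcc1 and Abcg2 were each low in a different animal. Abcc1 encodes the multidrug resistance protein MRP1, which exports conjugated and unconjugated drugs. It had 651, 554, 721 and 727 reads, or 48.0, 34.2, 47.0 and 47.7 CPM, with a mean of 44.2 ± 6.70 CPM (SD, n = 4). Replicates 1, 3 and 4 could hardly be told apart, and replicate 2 stood below them, with a Wilson interval of 31.5 to 37.2 CPM that did not reach theirs. The gap between replicate 2 and its nearest neighbour made up 0.937 of the whole range on the log2 scale, past Dixon's 95% critical value for 4 samples. This held for 1 of the 7 genes and for 5.08% of all genes. Abcc1 differed beyond counting error with all animals (chi-square adjusted p = 7.39e-10) and not without replicate 2 (chi-square adjusted p = 0.934). Against the trend its SD was 1.53 times the expected value (limma adjusted p = 0.978).

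Podocyte and some mesangial genes were low in the same animal, in which 31.5% of all genes were lowest. Of the 10 podocyte markers, 9 were lowest in replicate 2, where the list summed to 6067 CPM against 7881 to 10280 CPM in the others. Of the 6 mesangial markers, 4 were lowest there, though their sum, 1823 CPM, lay within the range of the other animals, 1753 to 2236 CPM. The distal nephron markers also had their lowest sum there, 504 CPM against 565 to 670 CPM. They were split, however: of these 6 markers, 2 were lowest and 2 highest there, against 31.5% and 21.3% of all genes. None of these markers was at 0 reads in any library. Replicate 2 was also the library with the largest mitochondrial share, 12.5%, and with mitochondrial genes out of the totals Abcc1 still differed beyond counting error (chi-square adjusted p = 4.17e-07), by 1.33 times between its extremes. The part of these cells in the level of Abcc1 was not tested.

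Abcg2 encodes the breast cancer resistance protein, a pump that in rodents sits on the brush border of proximal tubule cells and on endothelium. It had 467, 491, 337 and 527 reads, or 34.5, 30.3, 22.0 and 34.6 CPM, with a mean of 30.3 ± 5.91 CPM (SD, n = 4). Replicate 3 was the lowest, with an interval of 19.7 to 24.4 CPM that lay below those of the other animals, and replicates 1 and 4 were nearly equal. The highest animal exceeded the lowest by 1.57 times, the widest range of the 7 genes. The difference exceeded counting error (chi-square adjusted p = 1.12e-10) and no longer did so without replicate 3 (chi-square adjusted p = 0.0933). Its SD of 0.31 in log2 CPM was above that of 77.8% of all genes and 1.84 times the trend on the log2(CPM + 1) scale (limma adjusted p = 0.957).

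The proximal tubule markers shared this low point. All 8 of them (Lrp2, Cubn, Slc34a1, Slc5a2, Slc5a12, Slc22a6, Slc22a8 and Aqp1) were lowest in replicate 3, as 19.6% of all genes were, and summed there to 2662 CPM against 3993 to 5527 CPM in the others. None was at 0 reads in any library. The endothelial markers went the other way in that animal, with a sum of 7113 CPM against 5479 to 5983 CPM in the others. Among 13144 genes with a symbol of their own, the 3 whose deviations from their mean over the 4 animals lay nearest to those of Abcg2 were Glb1l2, Slc34a1 and Ptger3, with root mean square differences of 0.009, 0.026 and 0.028 on the log2(CPM + 1) scale. Slc34a1, the sodium phosphate cotransporter of the proximal tubule, had 23728, 24906, 17169 and 27715 reads. With 4 animals many profiles coincide, and 107 genes lay within 0.1 of Abcg2. How far tubular RNA accounts for the level of Abcg2 was not tested.

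Because Abcc1 and Abcg2 were low in different animals, their balance moved. The difference in log2 CPM of Abcc1 minus Abcg2 was 0.48, 0.17, 1.10 and 0.46 in replicates 1 to 4, a range of 0.92. It was highest in replicate 3 and lowest in replicate 2, with replicates 1 and 4 nearly equal.

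**Figure D4:**
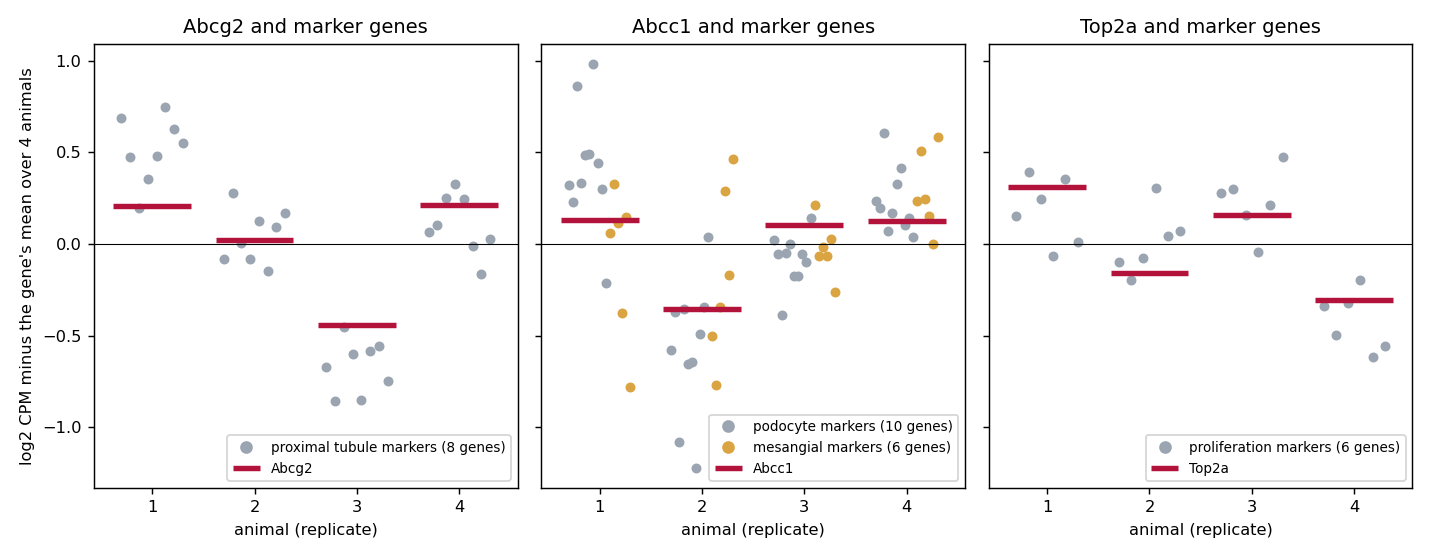
Deviation of log2 CPM from each gene's own mean over the 4 animals (y axis) by animal (x axis) for Abcg2, Abcc1 and Top2a (red bars), with proximal tubule, podocyte and proliferation markers as grey dots and mesangial markers as orange dots. Abcg2 is lowest in replicate 3 with the 8 proximal tubule markers, Abcc1 is lowest in replicate 2 with 9 of 10 podocyte markers, and Top2a is lowest in replicate 4 with the 6 proliferation markers.

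Por and Cbr3 represent the reductive fate of the drug. Por encodes cytochrome P450 reductase, the electron donor of microsomal P450 enzymes. It had 2235, 2269, 2011 and 2053 reads, or 165, 140, 131 and 135 CPM. Replicate 1 was the highest and the other three lay close together, and the mean was 143 ± 15.2 CPM (SD, n = 4). The spread passed the counting-error test (chi-square adjusted p = 4.29e-14), but not without replicate 1 (chi-square adjusted p = 0.142), and the SD was 1.01 times the trend (limma adjusted p = 0.998). In replicate 1 the summed proximal tubule markers were also at their highest, 5527 CPM, and so were the podocyte markers, 10280 CPM, and the distal nephron markers, 670 CPM. The distal nephron markers were split: of the 6, 3 were highest and 2 lowest there, against 27.7% and 35.0% of all genes. The part of these cells in the level of Por was not tested.

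Cbr3, the carbonyl reductase that had a row, was the most sparsely read of the 7 genes. Its 93, 118, 128 and 130 reads corresponded to 6.89, 7.31, 8.37 and 8.56 CPM, a mean of 7.78 ± 0.81 CPM (SD, n = 4). The Wilson interval of the lowest animal, replicate 1, ran from 5.60 to 8.40 CPM and that of the highest, replicate 4, from 7.18 to 10.1 CPM, so the intervals overlapped. No difference between animals was detectable at this depth (chi-square adjusted p = 0.336), at which counting error alone amounts to a coefficient of variation of 9.32%.

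Prkdc, the kinase of the end-joining pathway, had more reads than Cbr3 and a small spread. It had 681, 900, 870 and 825 reads, or 50.2, 55.6, 56.7 and 54.1 CPM, with a mean of 54.2 ± 2.82 CPM (SD, n = 4). Replicate 1 was the lowest and the other three lay close together. The spread did not exceed counting error (chi-square adjusted p = 0.128), except with mitochondrial genes out of the totals (chi-square adjusted p = 0.0132). Its SD of 0.08 in log2 CPM was above that of 10.4% of all genes and was 0.51 times the trend on the log2(CPM + 1) scale.

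Other genes of these pathways had a median SD of 0.21 to 0.26 in each of the 6 lists, beside 0.15 for the 7 genes and 0.18 for all genes. Values are given for the widest and the narrowest spread in each list, and these genes and any other named from the lists, Top2a aside, were chosen after their values were seen. The limma trend called 0 genes in each of the lists. In the topoisomerase list, which adds Top2a and the enzymes that clear trapped topoisomerases, 5 of 6 genes exceeded counting error, against 69.5% of all genes, and the median SD was 0.22. Tdp2, which releases topoisomerase II from DNA ends, spread most, with 345, 587, 639 and 517 reads and a low point in replicate 1. Tdp1, which acts on topoisomerase I adducts, spread least at 66, 70, 83 and 71 reads.

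Of the 12 other drug transporters, 11 had a row and 8 of these exceeded counting error, a share near the 69.5% of all genes, with a median SD of 0.23. The widest was Slc28a3, a nucleoside transporter, at 44, 29, 58 and 56 reads, and the narrowest was Abcb8, a mitochondrial ABC transporter, at 763, 830, 809 and 825 reads. Counting error widens the SD at such low reads. Beyond it, the coefficient of variation was 25.2% for Slc28a3 and 32.1% for Abcc6. Of the 11, 4 were lowest in replicate 1, 4 in replicate 2 and 3 in replicate 3, where 35.0%, 31.5% and 19.6% of all genes were lowest. In replicate 3, 4 of the 11 were highest, against 29.6% of all genes. The 3 lowest in replicate 3, as Abcg2 was, were Abcc10 and the pumps of the apical proximal tubule membrane, Abcc2 and Abcc4. Abcc10 had 227, 285, 212 and 245 reads and did not exceed counting error (chi-square adjusted p = 0.0768). Abcc2 had 298, 252, 159 and 222 reads, and Abcc4 had 604, 702, 461 and 664 reads.

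All 9 of the other carbonyl and aldo-keto reductases exceeded counting error, against 69.5% of all genes, with a median SD of 0.26. Their median level was 6.29 log2 CPM, against 4.85 for all genes, and genes with more reads pass this test more easily. Of the 9 reductases, 6 were lowest in replicate 3 and 7 were highest in replicate 1, against 19.6% and 27.7% of all genes. Sord, sorbitol dehydrogenase, spread most with 4106, 4151, 2393 and 2809 reads. Akr1b1, aldose reductase, spread least with 985, 1179, 1233 and 1278 reads. Proximal tubule markers had the same extremes in sum, and their part was not tested.

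All 9 of the other single-electron and quinone reductases exceeded counting error as well, again against 69.5% of all genes, with a median SD of 0.21. Nqo2, a quinone reductase, had 324, 291, 180 and 239 reads, the widest spread. Xdh, xanthine dehydrogenase, had 2825, 3841, 3243 and 3025 reads, the narrowest. Of the 9, 4 were lowest and 3 were highest in replicate 3, against 19.6% and 29.6% of all genes, so the list had no common direction there.

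Of the 6 proteins that take electrons from Por, 5 exceeded counting error, against 69.5% of all genes, with a median SD of 0.21. Cyp51, a P450 of sterol synthesis, spread most, at 650, 757, 677 and 1047 reads. Hmox2, the constitutive haem oxygenase, spread least, at 685, 911, 797 and 810 reads. Por was highest in replicate 1, and so were 2 of the 6 partners, a share near the 27.7% of all genes. In replicate 3, where Por was lowest but close to replicates 2 and 4, 3 of the 6 partners were lowest, against 19.6% of all genes.

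Of the 11 end-joining partners of Prkdc, 8 exceeded counting error, a share near the 69.5% of all genes, and the median SD was 0.25. Like Prkdc, 6 of them were lowest in replicate 1, where 35.0% of all genes were lowest. Again like Prkdc, 6 were highest in replicate 3, where 29.6% of all genes were highest. Prkdc itself did not exceed counting error, nor did every partner counted here, so these extremes may be sampling. Nhej1, a scaffold of the ligation complex, spread most at 34, 62, 54 and 34 reads, where counting error alone amounts to a coefficient of variation of 15.3%. Xrcc4, its binding partner, spread least at 92, 99, 99 and 100 reads. All 6 leukocyte markers were lowest in replicate 1 too, summing to 159.5 CPM there against 206 to 271 CPM in the others. The summed endothelial markers (5479 CPM against 5845 to 7113 CPM) and mesangial markers (1753 CPM against 1823 to 2236 CPM) were lowest in replicate 1 as well. Of the 6 mesangial markers, however, 2 were lowest there and 4 lay above their own mean. The leukocyte and endothelial sums were both highest in replicate 3. The part of these cells was not tested.

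**Figure D5:**
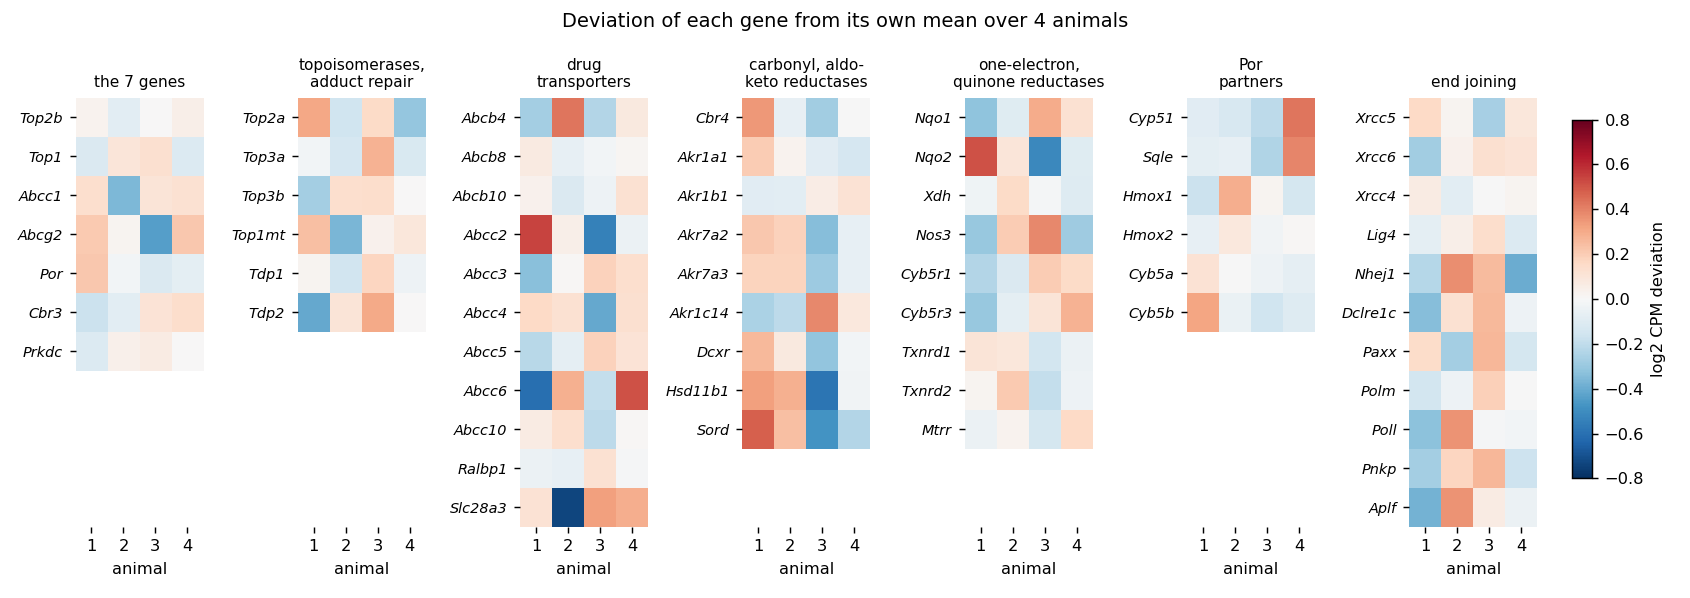
Deviation of log2 CPM from each gene's own mean over the 4 animals (colour, red above and blue below) for the 7 genes and the 52 measured genes of the 6 related lists (rows), by animal (columns, replicates 1 to 4). Top2b and Prkdc stay pale across animals, Abcg2 is blue in replicate 3 together with Abcc2, Abcc4, Sord and Nqo2, while others such as Tdp2 and Nhej1 are red there, and Abcc1 is blue in replicate 2.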

How the data were processed

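Glomerular poly(A) RNA of 4 ADR rats was sequenced, and the deposited table holds log2 values, 1 per gene and sample. Per the submitters' processing notes, HISAT2, featureCounts (Subread) and limma were used with the build Rnor_6.0; versions, use of strand, annotation release and filters are not given in the sources used here. Raising 2 to the deposited log2 values returned a whole number of reads plus 0.5, times a constant of the sample, for 100% of values within 0.01 reads (at very high counts the nearest whole number was taken), so the form is log2 CPM. Of 13265 rows, 4 with displaced cells were left out.

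Members and gene lists were chosen with earlier results of these data known. The named genes are all members, Top2a, the 3 genes nearest to the member of largest SD, and any list gene that limma called; the planned highest and lowest gene per coding length, and the planned tests of pair differences per coding length, were not made because no coding lengths were used here, and the widest and narrowest spread replaced the former. Abcc2, Abcc4, Abcc6, Abcc10, Hsd11b1 and Sqle fall outside the rule and were named after their values were seen. Of the planned read shares of paralogs, that of Top2a was computed.

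Recovered reads were compared with Poisson sampling by chi-square, with 3 degrees of freedom and expected reads in proportion to library totals. In limma 3.58.1 (R 4.3.3), a fit of log2(CPM + 1) with a mean alone gave each gene's variance, which an upper-tailed F test set against the abundance trend. P-values were adjusted by Benjamini-Hochberg over 13261 genes. Samples were matched by title and numbered in accession order. Alternatives were other scalings, pseudocounts, filters and priors, and each replicate left out. Intervals cover counting error only, since reads are not independent molecules. The tests were tried on simulated data, where the limma test found few or none of the genes changed in a single sample by as little as the 7 genes differed between animals. The simulation gave all genes the same variation beyond counting, which the real genes do not share. In the data the test called 0 genes (smallest limma adjusted p = 0.912), though the highest animal exceeded the lowest by up to 241 times. Its lack of calls therefore says little about small or larger differences.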

Additional observations from a re-analysis of the deposited data

Results flagged for a closer look

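Of 19 values examined (the 7 genes, Top2a, its share, 3 read ratios and 7 marker sums), 1 had a single animal far from the rest, measured as its gap to the nearest animal over the full range (Dixon), where chance alone gives 0.95. Abcc1 was set apart by replicate 2, with a ratio of 0.937. It had 554 reads there against 651 to 727 in the other libraries.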

How the results depend on the processing

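Of 231 recomputed values, 219 stayed within their criterion: the same side of an adjusted p of 0.05, within 1 SD for a level or ratio, or within 1.5 times for a count or a highest-to-lowest ratio. The number of the 7 genes beyond counting error, 5, ran from 3 to 5 when each replicate was left out, with 3 (Top1, Abcg2 and Por) without replicate 2, and was 5 under each of the other scalings, with Prkdc in place of Top2b when mitochondrial genes were out of the totals. The 0 genes past limma's variance trend, of the 7 and of all, was 0 under each alternative run with limma; the added Pearson statistic at a binned dispersion trend, chosen after the data were seen, gave 998 of all genes. The cause was not tested. Taking mitochondrial genes out of the totals raised all levels by 0.14 (log2) on average, from 0.11 in replicate 1 to 0.19 in replicate 2. The highest-to-lowest ratio of each gene stayed within 1.5 times under each scaling and each replicate left out. Leaving out an animal can only lower this ratio, so genes with a ratio below 1.5 could not fail there. Such fixed outcomes are among the 219 and show no stability. The ratio of Abcc1 fell from 1.40 to 1.02 without replicate 2, and that of Abcg2 from 1.57 to 1.14 without replicate 3. Leaving out 1 of 4 animals moves a mean by less than its SD, so levels that stayed show no stability. The planned Pearson statistic with a dispersion trend from a count package was not run, nor were the pair differences per length. The added Pearson statistic used the recovered reads. Depth limits Cbr3 most, at 93 to 130 reads.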

Other observations

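Of the 52 measured related genes, 3, named after their values were seen, passed the added Pearson statistic at a binned dispersion trend, a test chosen after the data were seen that called 998 or 7.53% of all genes: Abcc6 (Pearson adjusted p = 0.0343), Hsd11b1 (Pearson adjusted p = 0.00827) and Sord (Pearson adjusted p = 0.0107). Abcc6, an ABC transporter related to Abcc1, had 129, 285, 194 and 314 reads in replicates 1 to 4. Hsd11b1, a reductase that regenerates active glucocorticoid, had 1602, 1849, 962 and 1401 reads. Hsd11b1 and Sord are 2 of the 9 carbonyl and aldo-keto reductases, and Abcc6 is 1 of the 11 transporters. At an unadjusted p under 0.05 the limma trend test gave 2 of those 9 reductases, against 5.46% of all genes, and it gave none of these 3 genes an adjusted p under 0.05. Sqle, the epoxidase of sterol synthesis, was also picked after its values were seen and was highest in replicate 4, as Cyp51 was and as 21.4% of all genes were, with 259, 313, 262 and 403 reads.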
